A study of Homo sapiens with 18 samples.

Results

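The clustered protocadherin genes were taken as the rows of the count table that GENCODE 29 types as protein-coding, places on chromosome 5 and names with a symbol that begins with PCDHA, PCDHB or PCDHG. The rule found 53 genes among 58735 rows: 15 PCDHA, 16 PCDHB and 22 PCDHG genes. All lie on the plus strand of GRCh38 between positions 140786136 and 141512979. Their levels were followed in 18 RNA-seq libraries of SH-SY5Y, a human neuroblastoma cell line of wild-type genotype, after 7 days of 10 µM all-trans-retinoic acid, which turns the cells neuron-like. Each of 6 groups held 3 libraries, taken after 15 min of exposure. Control cells received water. The other groups received morphine at 193 nM, metamorphine at 169 nM, TRV130 (an agonist of the mu opioid receptor) at 200 nM, beta-endorphin (an endogenous opioid peptide) at 200 nM or naloxone (an opioid receptor antagonist) at 200 nM. All groups, Control included, were differentiated in the same way, and all come from 1 cell line. Whether replicates were grown as separate cultures is not stated, and p-values measure only the spread between these libraries.

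Clustered protocadherins are cell surface proteins of the cadherin superfamily that bind like molecules on neighbouring membranes, and neurons use their combinations to tell their own branches from those of other cells. In the PCDHA and PCDHG arrays each variable exon has its own promoter and encodes the extracellular, membrane and first cytoplasmic parts of a protein, and is spliced to constant exons that encode a cytoplasmic end common to the whole array. PCDHB genes have a single coding exon and no constant exons. Most promoters are chosen in a seemingly random way in single neurons with the help of CTCF and cohesin, whereas the C-type genes at the ends of the PCDHA and PCDHG arrays (PCDHAC1, PCDHAC2, PCDHGC3, PCDHGC4 and PCDHGC5) are regulated apart from the rest.

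The splice junctions of 5 highly counted genes show which part of a read can name an isoform and which cannot. The last 21 bases of the variable exon are in lower case, and the first constant exon, 59 bases, is in capitals. All are plus strand, from the GRCh38 transcripts of GENCODE 29.
PCDHAC2: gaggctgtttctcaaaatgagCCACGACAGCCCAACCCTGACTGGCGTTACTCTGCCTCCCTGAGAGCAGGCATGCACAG
PCDHA10: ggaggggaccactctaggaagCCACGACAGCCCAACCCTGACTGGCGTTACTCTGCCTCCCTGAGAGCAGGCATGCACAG
PCDHGC3: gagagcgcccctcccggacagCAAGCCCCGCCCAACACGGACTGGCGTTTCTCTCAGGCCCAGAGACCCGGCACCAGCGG
PCDHGA7: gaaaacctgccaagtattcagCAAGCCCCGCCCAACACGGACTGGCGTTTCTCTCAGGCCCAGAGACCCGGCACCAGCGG
PCDHGB7: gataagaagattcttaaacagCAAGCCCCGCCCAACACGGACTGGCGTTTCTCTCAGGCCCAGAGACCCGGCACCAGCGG
The capitals are identical within an array, and the alpha and gamma capitals share 39 of 59 positions. The alpha constant exons lie at chr5:140978949-140979007, chr5:140982475-140982563 and chr5:141009627-141012344. They add 2866 bases to every PCDHA gene. The gamma constant exons lie at chr5:141494807-141494865, chr5:141505393-141505481 and chr5:141510947-141512979, and add 2181 bases to every PCDHG gene.

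Each read in these constant exons stood in the row of every gene of its array. Counted once in each row, such reads made up most reads of the PCDHA and PCDHG rows. In the 22 PCDHG rows the lowest row of a library accounted for 96.8% to 99.7% of the reads of all 22 rows (median 97.4%), and in the 15 PCDHA rows for 85.5% to 93.3% (median 88.7%). The PCDHGC3 and PCDHGA12 rows held 5951 and 5856 reads in Control 1, where they were most alike, and 9229 and 6993 in Naloxone 2. Over the whole table, 1721 of 1894 genes that have no exon base of their own still had at least 1 read, so reads in shared bases were credited to each gene. The deposited rows therefore do not show which isoforms the cells express. By the mean level per kb of exon base that no other gene covers, with 1 CPM (a read per 1000000 counted reads of the library) per kb as the threshold, 15 of 15 PCDHA, 14 of 16 PCDHB and 22 of 22 PCDHG rows counted as expressed.

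To separate the isoforms, the lowest row of the array was subtracted from each PCDHA and PCDHG row in each library. What remains is called own reads. The lowest gene's own reads are subtracted too, and reads of genes outside the 3 families that overlap a member's exons can remain (22 of 53 members have such an overlap). The lowest row was kept as a single measure of the constant exons of each array. Against this single row, summed alpha own reads were more numerous in every library (1.07 to 2.53 per read of the lowest row). Summed gamma own reads were fewer (0.07 to 0.73). PCDHA13 was the lowest PCDHA row in all 18 libraries, in 1 of them tied with PCDHA9, and so has no own reads by construction. In PCDHG, 7 genes were lowest in at least 1 library, ties included. By own reads, and with the same threshold per kb of exon outside the constant exons, 6 of 15 PCDHA and 4 of 22 PCDHG genes reached it. The length was that of all annotated exons, so genes with long annotations could miss it. PCDHA10 and PCDHA4 (6.70 and 5.07 CPM, 12358 and 10574 bases) did, while PCDHA12 (3.40 CPM, 2588 bases) passed. The count thus does not show that the other genes are silent. The measure of own reads was chosen after the counts had been seen.

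**Figure D1:**
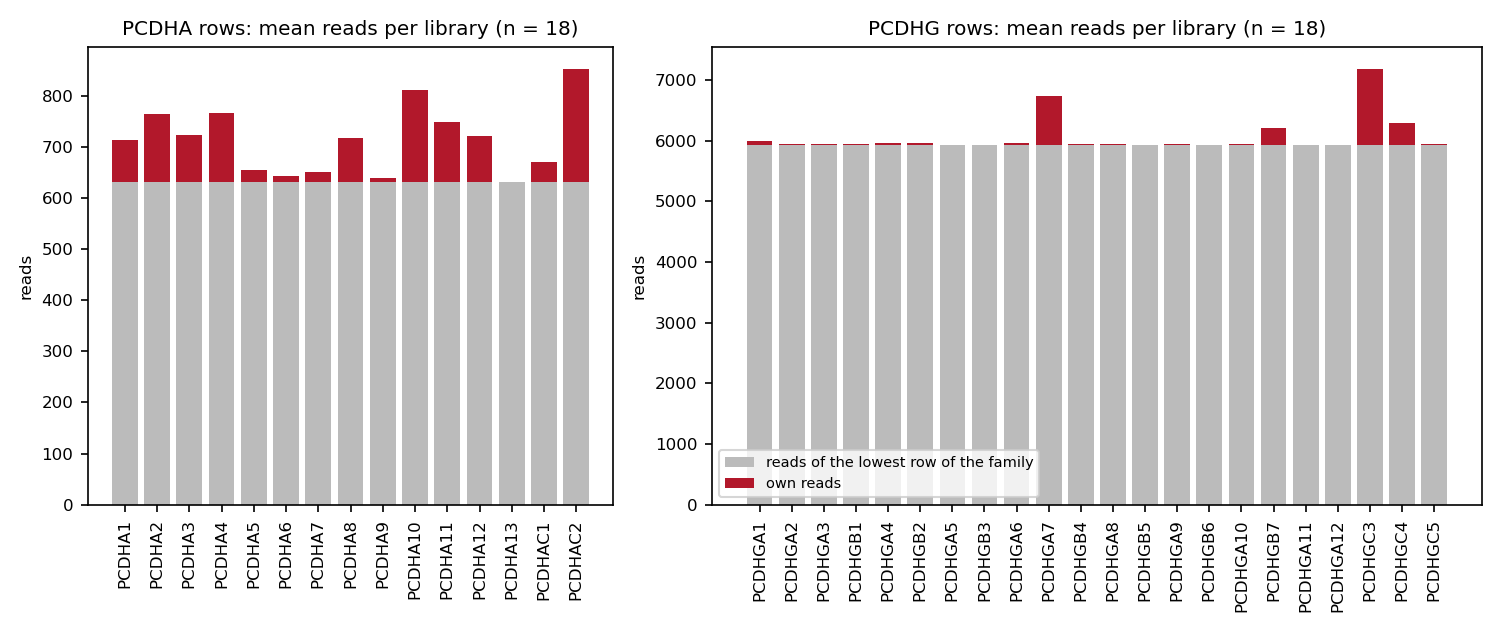
Mean reads per library of each PCDHA (left) and PCDHG (right) row over 18 libraries, in chromosome order, with the lowest row of the array in grey and own reads in red. The grey part is the same in every bar of an array, and in PCDHG only PCDHGA7, PCDHGB7, PCDHGC3 and PCDHGC4 rise visibly above it.

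Among gamma genes, 4 isoforms stood out. PCDHGC3, a C-type isoform known to bind AXIN1, had the highest own reads with 47.9 CPM ± 25.5 (SD, n = 18), or 14.7 CPM per kb, and 40.1% of the gamma own reads. PCDHGA7, at chr5:141382739-141512979, followed with 30.9 CPM ± 16.4, or 9.48 CPM per kb and 26.1% of the gamma own reads. PCDHGC4, the C-type isoform that neurons of the mouse need for survival, had 13.6 CPM ± 6.72 and 4.87 CPM per kb. PCDHGB7 had 10.8 CPM ± 5.71 and 3.88 CPM per kb. These genes together held 63.1% (Control 1) to 92.5% (Naloxone 3) of the gamma own reads, with a median of 88.8% over 18 libraries. The next gene, PCDHGA1, reached 2.85 CPM, and the other 17 had 1.35 CPM or less. PCDHGA12, PCDHGA11 and PCDHGB5 were lowest, with 43, 52 and 62 own reads over all 18 libraries. PCDHGC5, a C-type isoform known to associate with GABA-A receptors, had 0.67 CPM ± 0.42, between 4 and 33 own reads a library.

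The order PCDHGC3 above PCDHGA7 held in 17 of 18 libraries. In those 17 libraries PCDHGA7 had 0.52 to 0.72 own reads per PCDHGC3 own read. In Control 1 the ratio was 1.05, from 101 and 96 own reads. PCDHGC4 own reads were above those of PCDHGB7 in 16 of 18 libraries, all but Control 2 and Control 3.

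Alpha own reads were spread over more genes. PCDHAC2, the C-type isoform that serotonergic neurons of the mouse need to space their axons, led with 8.42 CPM ± 4.31 (SD, n = 18) and 2.44 CPM per kb. PCDHA10 and PCDHA4 followed by reads with 6.70 and 5.07 CPM. Their annotated exons outside the constant exons span 12358 and 10574 bases, and per kb of these they had 0.54 and 0.48 CPM. The variable exon shown above has only 2388 bases in PCDHA10, and 3097 in PCDHAC2. The order per kb therefore depends on the length used. By annotated exons the order after PCDHAC2 was PCDHA2 with 1.57, PCDHA12 with 1.31 and PCDHA11 with 1.30 CPM, which differ by less than their spread. PCDHAC1 had 1.45 CPM ± 0.68. PCDHA9 was lowest of the genes that kept own reads, with 0 to 23 a library, and PCDHA5, PCDHA6 and PCDHA7 stayed under 0.3 CPM per kb.

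PCDHB rows are not affected by constant exons, and 14 of 16 had at least 1 CPM per kb. PCDHB9, at chr5:141187127-141191541, was highest with 47.2 CPM ± 10.6 (SD, n = 18) and 10.7 CPM per kb. PCDHB10 had 9.54, PCDHB14 8.95 and PCDHB3 8.22 CPM per kb. PCDHB4 and PCDHB6 came next with 7.42 and 5.93, and then the level dropped to 1.86 CPM per kb in PCDHB2. The 6 highest genes held 74.7% to 85.9% of the PCDHB reads of a library. PCDHB1, the first gene of the array, had 0 to 10 reads a library and PCDHB11 had 0.51 CPM per kb. By own reads per kb, PCDHB genes made up 58.9% ± 8.58 of the level of the 3 families, PCDHG genes 30.6% ± 7.82 and PCDHA genes 10.4% ± 1.33 (SD, n = 18). By the deposited rows the same shares were 3.71%, 89.3% and 6.98%, since each constant-exon read is counted 22 or 15 times there. The order of the families depends on this choice: the lowest gamma row alone had 102 CPM per kb of constant exon, the lowest alpha row 8.35, and all PCDHB genes together 63.1 CPM per kb.

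**Figure D2:**
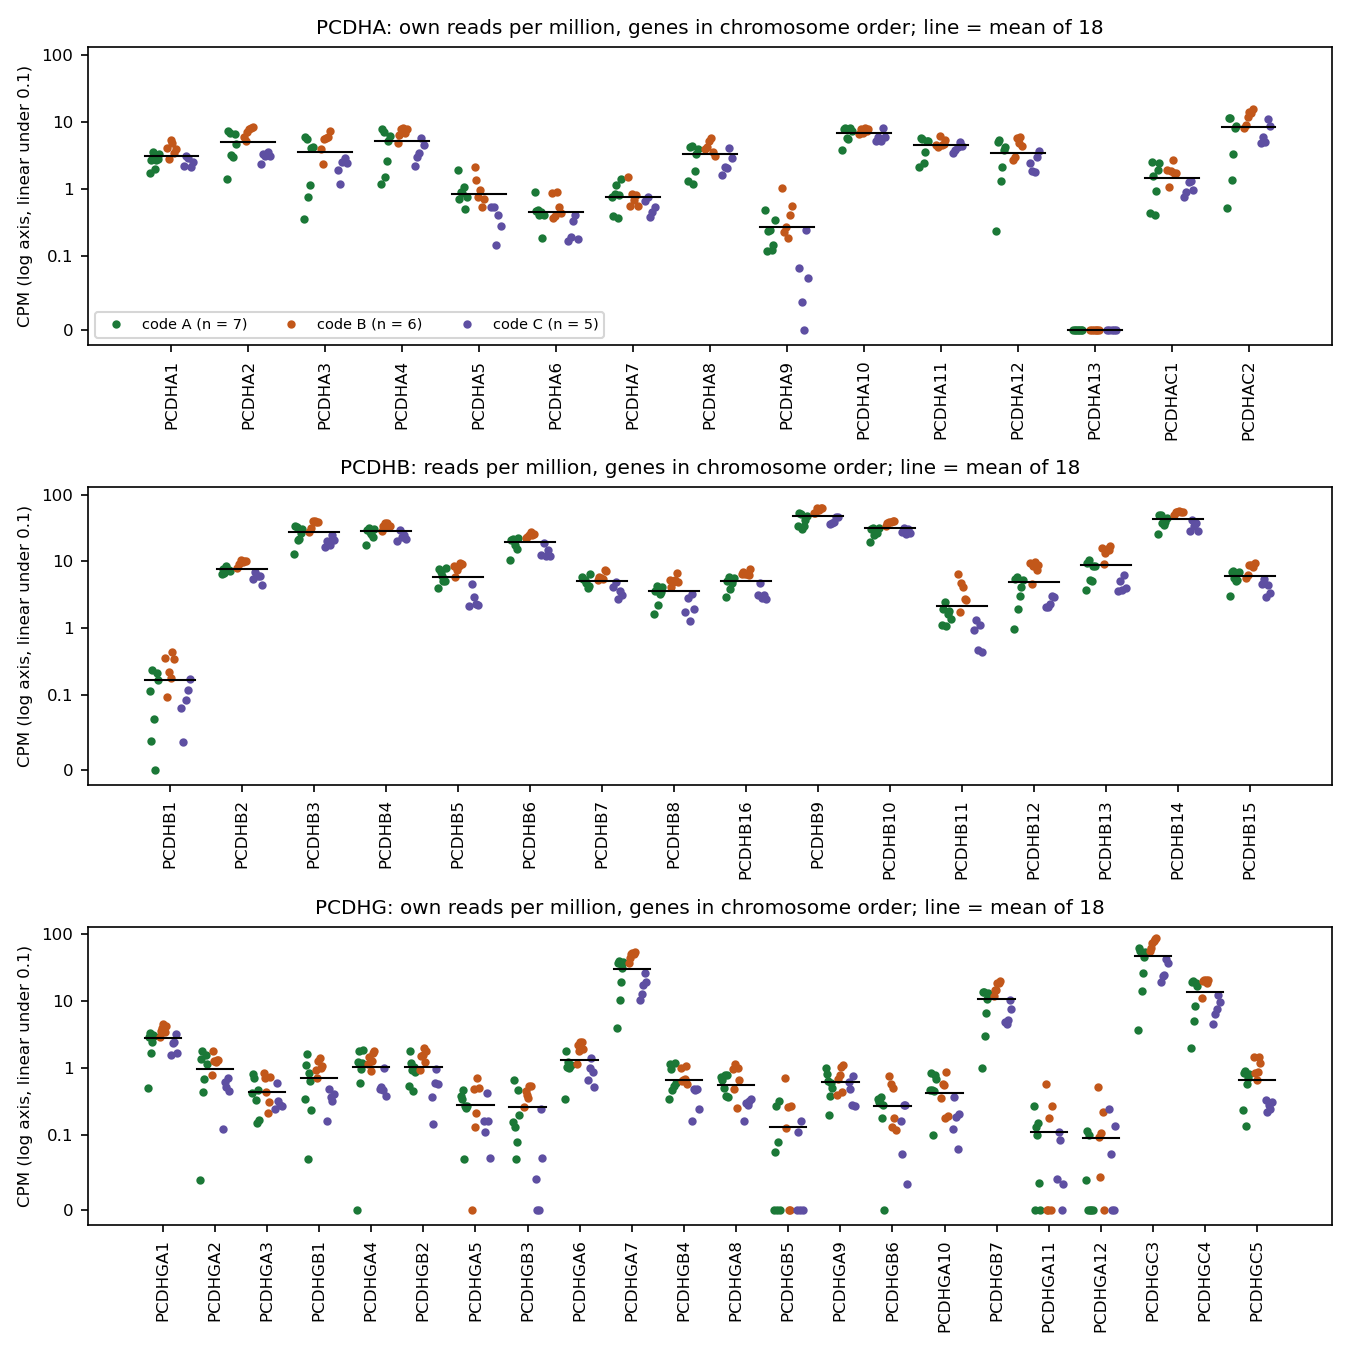
CPM of each gene (own reads for PCDHA and PCDHG) in the 18 libraries, in chromosome order, coloured by library code, with the mean as a black line. PCDHGC3, PCDHGA7, PCDHGC4 and PCDHGB7 stand above the other gamma genes, and code B points lie above code C points in most genes.

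Promoters of high and low genes, with 1 exception, carried the same short motif. RefSeq windows of 250 bases before to 50 after the start (GRCh38.p14) were held for 47 of 53 genes, 52 windows in all. CGCT, the core of the conserved element of many of these promoters, was searched on both strands (CGCT or AGCG). It was in 51 of 52 windows (98.1%) and in 70.0% of all 35116 windows of this length. The window without a match was that of PCDHA9, the lowest alpha gene of those that kept own reads. The windows below are of the highest gamma C-type gene, the highest other gamma gene, a gamma gene with almost no own reads and the highest beta gene, with matches in capitals, plus strand.
PCDHGC3, chr5:141475716-141476015: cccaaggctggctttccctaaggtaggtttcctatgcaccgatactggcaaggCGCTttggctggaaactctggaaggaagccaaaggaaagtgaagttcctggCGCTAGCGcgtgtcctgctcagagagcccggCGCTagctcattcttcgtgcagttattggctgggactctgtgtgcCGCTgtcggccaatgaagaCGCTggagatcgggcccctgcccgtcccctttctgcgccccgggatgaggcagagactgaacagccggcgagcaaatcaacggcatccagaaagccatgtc
PCDHGA7, chr5:141382492-141382791: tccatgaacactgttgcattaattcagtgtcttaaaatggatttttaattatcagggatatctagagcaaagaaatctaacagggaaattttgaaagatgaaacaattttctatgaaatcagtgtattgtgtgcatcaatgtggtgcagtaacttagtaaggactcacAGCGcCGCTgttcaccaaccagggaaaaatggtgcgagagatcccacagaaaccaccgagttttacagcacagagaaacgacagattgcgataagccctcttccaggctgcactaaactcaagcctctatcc
PCDHGA11, chr5:141420801-141421100: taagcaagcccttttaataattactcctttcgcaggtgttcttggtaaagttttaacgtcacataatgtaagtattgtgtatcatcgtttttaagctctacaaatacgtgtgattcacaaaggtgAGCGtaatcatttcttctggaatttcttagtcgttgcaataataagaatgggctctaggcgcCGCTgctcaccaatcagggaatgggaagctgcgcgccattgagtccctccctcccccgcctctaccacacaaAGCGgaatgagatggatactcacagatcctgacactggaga
PCDHB9, chr5:141186911-141187210: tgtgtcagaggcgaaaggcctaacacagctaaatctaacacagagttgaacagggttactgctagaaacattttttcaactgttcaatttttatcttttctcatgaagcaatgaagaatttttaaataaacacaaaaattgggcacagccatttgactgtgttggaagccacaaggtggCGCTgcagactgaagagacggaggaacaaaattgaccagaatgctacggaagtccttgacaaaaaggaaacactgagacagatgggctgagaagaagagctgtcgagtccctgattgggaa
PCDHGC3 had 6 matches, PCDHGA7 2, PCDHGA11 3 and PCDHB9 1, so the number of matches did not follow the level in these genes. The windows were poor in G and C (median 40.7%, against 58.7% of all windows), but those of PCDHAC1, PCDHAC2, PCDHGC3 and PCDHGC4 had 66.0%, 63.0%, 59.0% and 60.7% or more. Windows of PCDHGB6 (65.0%), PCDHGB5 (60.0%) and PCDHGB4 (58.7%) were as rich, so this is not particular to C-type genes. A match is a description of the letters. It shows neither that the whole conserved element is present nor any binding.

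The labels give each library a code. The 3 number codes are called A (7 libraries), B (6) and C (5) here. TRV130 1 and TRV130 2 carry the code of A with a further leading digit and were counted to it, and TRV130 has none of code C. What the codes stand for is not stated. Libraries held 21211449 to 33123855 counted reads. The noradrenergic marker DBH was abundant in all of them (885 to 2222 CPM). The fibroblast-type receptor gene PDGFRA was present too (60.0 to 236 CPM, lowest in Control 1), with the highest mean of the listed mesenchymal genes. PDGFRB had 50.2 to 157 CPM, COL3A1 22.7 to 85.6, LUM 38.5 to 80.4 and DCN 15.2 to 34.1. COL1A1 had only 2.45 to 10.1 CPM and COL1A2 0 to 0.39. Of the listed immune and endothelial genes CD68 (2.82 to 5.89 CPM), CD14, CD79A and VWF were counted in every library, while CDH5, KDR, PECAM1, PTPRC and CD3E were at 0 in at least 1. Control 1 stood apart: it held 20888 reads in genes that are silent in most libraries, against 276 to 3074 in the others, and the highest level of CDH1 (2.55 CPM) and CDH5 (1.49 CPM). Naloxone 1 and Naloxone 2, with 3074 and 1495, came next, and results were repeated without these 3 libraries.

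PCDHGC3, PCDHGA7 and the 16 beta genes had their highest mean in code B. PCDHGC3 own reads ranged from 3.77 to 62.5 CPM (median 45.2, n = 7) in code A, from 57.0 to 88.2 (median 77.3, n = 6) in code B and from 19.7 to 42.2 (median 25.1, n = 5) in code C. All code B libraries lay above all code C libraries, and code A overlapped both. The share of reads in mitochondrial genes was 8.02% to 15.7% in code B and 4.66% to 9.47% in code C, and its part in the differences between codes was not tested. PCDHGA7 showed the same order, with 37.1 to 55.0 CPM in code B and 10.3 to 26.2 in code C. PCDHGC4 did not separate the codes fully, with 11.4 to 21.2 CPM in code B and 4.60 to 12.3 in code C. PCDHB9 ranged from 52.3 to 63.1 CPM in code B and from 36.8 to 46.9 in code C, without overlap. PCDHAC2 overlapped, with 8.06 to 15.6 CPM in code B and 4.73 to 11.1 in code C. Code C was not the lowest throughout: PCDHAC2, PCDHB10 and the lowest alpha row had means of 7.08, 28.5 and 23.0 CPM in code C and of 6.34, 27.8 and 21.2 CPM in code A.

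Codes were compared with edgeR's quasi-likelihood test on all 18 libraries, with the treatment group in the model and p-values adjusted over all genes tested. Between code C and code B, 44 of 52 deposited rows passed the threshold of adjusted p 0.05, all lower in code C, beside 54.8% of all 23231 genes (27.8% lower). By own reads 37 of 48 genes passed, all lower: 7 of 14 alpha, 15 of 15 beta and 15 of 19 gamma genes, beside 54.7% of 23229 features (27.8% lower). The median log2 fold change of the 48 was -0.96, against -0.04 over all genes. The counts of rows are not counts of independent genes, since the 22 gamma rows share most of their reads.

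The largest falls from code B to code C among gamma genes were in PCDHGB3 (log2 fold change -2.74 ± 0.64 SE, adjusted p = 0.00195), from at most 17 own reads a library, and in the C-type gene PCDHGC5 (-1.93 ± 0.42, adjusted p = 0.00104). In Morphine 3 and Metamorphine 3, both of code C, the PCDHGB3 row was the lowest, alone or tied. Its 0 own reads there were set by the subtraction, so the size of its fall is partly made by it. The abundant isoforms were lower too, with log2 values of -1.52 ± 0.32 for PCDHGA7 (adjusted p = 0.00109), -1.36 ± 0.38 for PCDHGC3 (adjusted p = 0.00741), -1.33 ± 0.38 for PCDHGB7 and -1.23 ± 0.29 for PCDHGC4. The constant exons, measured by the lowest gamma row, had -0.62 ± 0.13 (adjusted p = 0.00074). The own reads of the abundant isoforms and the constant-exon reads thus had fold changes of different size, and that difference was not tested.

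Beta genes that changed most lie side by side. PCDHB11, PCDHB12 and PCDHB13 had log2 values of -1.97 ± 0.35, -1.66 ± 0.32 and -1.61 ± 0.22 in code C against code B, with adjusted p = 2.3e-04, 3.9e-04 and 3.0e-05. The 4 highest beta genes had smaller values and also passed, with -0.44 ± 0.10 for PCDHB9, -0.30 ± 0.10 for PCDHB10, -0.58 ± 0.10 for PCDHB14 and -0.76 ± 0.13 for PCDHB3. In code B, PCDHB12 ranged from 4.58 to 9.75 CPM and PCDHB13 from 9.13 to 17.2, and in code C from 2.06 to 3.08 and from 3.65 to 6.20, so the codes did not overlap in either gene.

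Among alpha genes 7 of 14 passed. PCDHA9 (-2.22 ± 0.58, adjusted p = 0.0040, at most 23 own reads) and PCDHA2 (-1.15 ± 0.24, adjusted p = 8.1e-04) were lower in code C than in code B. The PCDHA9 row was tied for lowest in Metamorphine 3, so its 0 own reads there were set by the subtraction. PCDHA11 (-0.19 ± 0.17), PCDHA12 (-0.71 ± 0.40), PCDHAC1 (-0.83 ± 0.40) and PCDHAC2 (-0.82 ± 0.44) did not pass. The constant exons, measured by the lowest alpha row, differed by -0.20 ± 0.10 (adjusted p = 0.093).

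**Figure D3:**
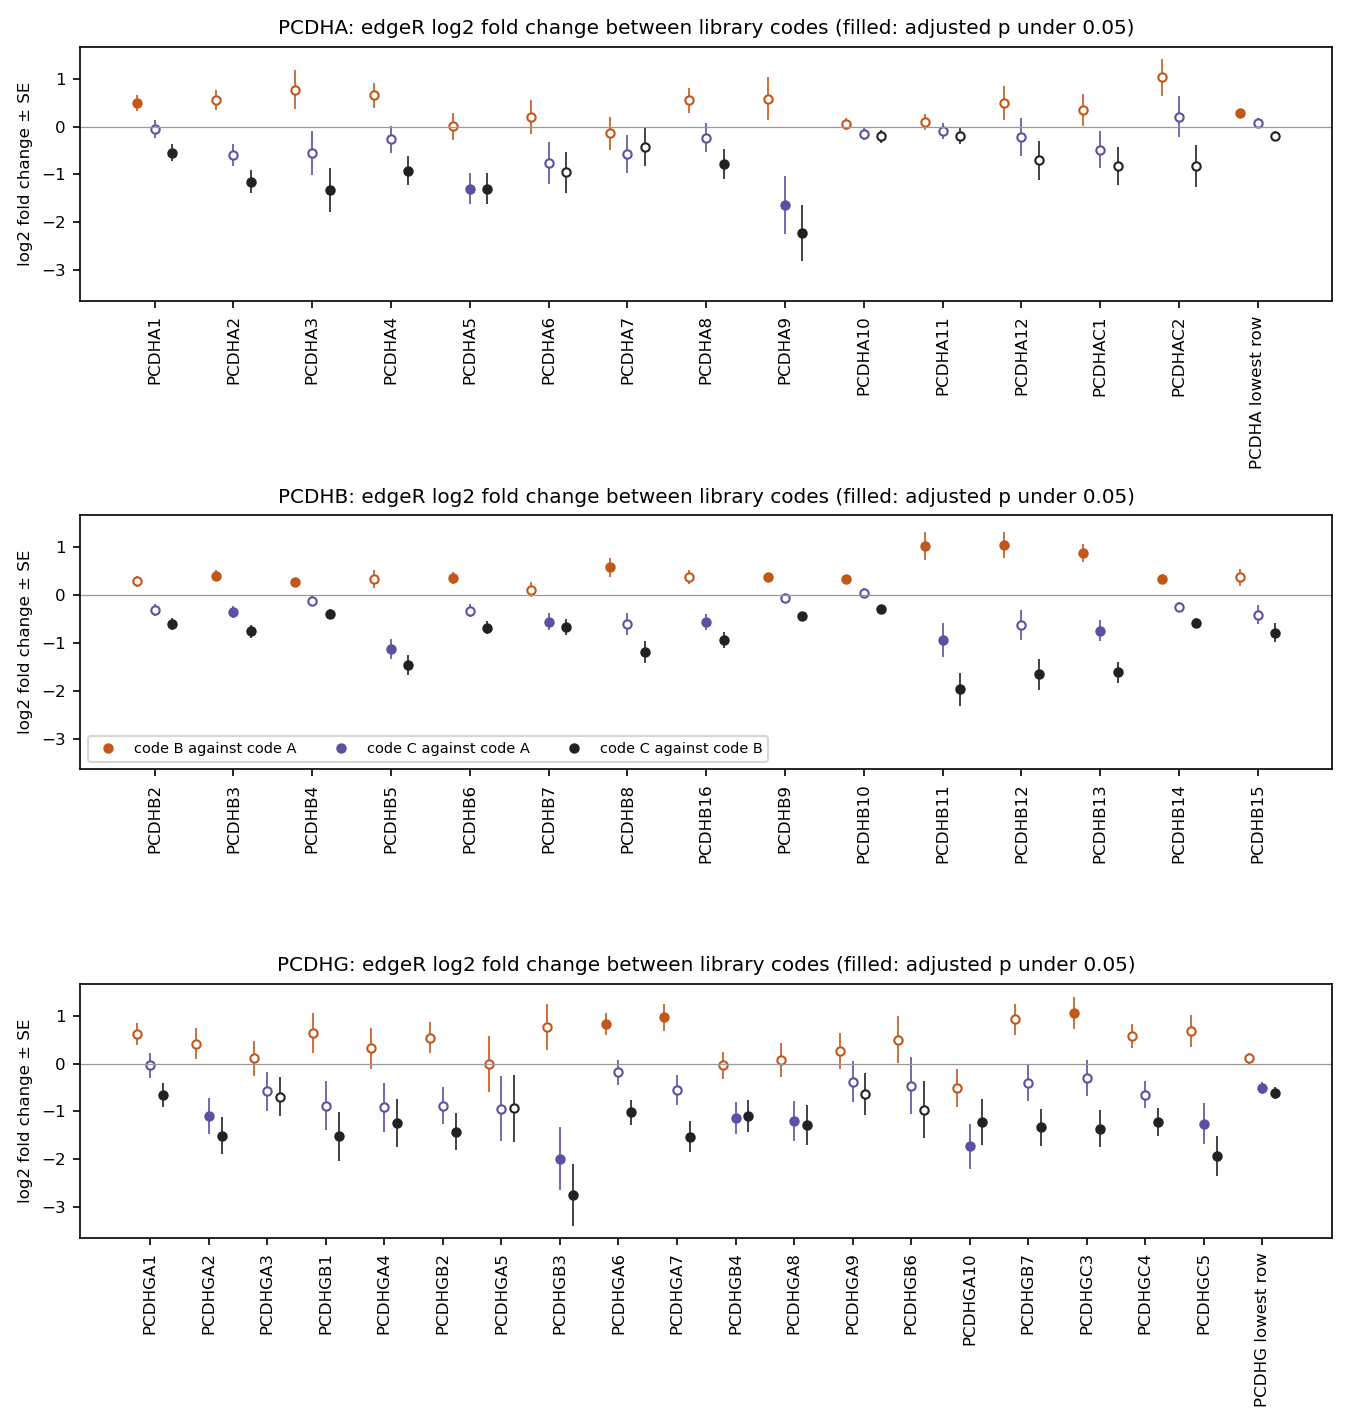
Log2 fold change ± SE of each tested gene (own reads for PCDHA and PCDHG) and of the lowest row of the alpha and gamma arrays, for the 3 code comparisons. Filled points passed the adjusted p threshold. All code C against code B values (black) lie below 0, down to -2.74 in PCDHGB3, whose own reads the subtraction set to 0 in Morphine 3 and Metamorphine 3.

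Code B exceeded code A in 24 of 52 rows and 14 of 48 genes by own reads, none lower, beside 26.9% and 26.8% of all features (11.5% and 11.4% higher). By own reads these were 1 alpha, 10 beta and 3 gamma genes. PCDHGC3 was higher by log2 1.06 ± 0.34 (adjusted p = 0.033), PCDHB12 by 1.04 ± 0.27, PCDHB11 by 1.02 ± 0.29, PCDHGA7 by 0.96 ± 0.28, PCDHB13 by 0.87 ± 0.19 and PCDHGA6 by 0.83 ± 0.22. The lower side had values only, PCDHGA10 with -0.51 ± 0.39, PCDHA7 with -0.14 ± 0.35 and PCDHGB4 with -0.04 ± 0.28. PCDHAC2 (1.03 ± 0.39), PCDHAC1 (0.35 ± 0.34), PCDHGC4 (0.58 ± 0.25), PCDHGB7 (0.92 ± 0.33) and PCDHGC5 (0.68 ± 0.34) did not pass. Without Control 1, Naloxone 1 and Naloxone 2, or without the 3 TRV130 libraries, 1 gene passed by rows and 1 by own reads, and the share called over all features by own reads fell from 26.8% to 7.41% and 8.11%. The log2 values under these 2 settings were 0.79 and 0.88 for PCDHGC3, 0.81 and 0.86 for PCDHB12 and 0.73 and 0.84 for PCDHGA6. Without TRV130 3 alone it was 3 and 3, without Control 2 8 and 6, without Beta-endorphin 1 8 and 9, and without Metamorphine 2, Beta-endorphin 2 or Naloxone 2 12, 15 and 10 rows. Shares over all features are not given for single left-out libraries, so these last counts cannot be read as particular to these genes.

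Code C was below code A in 28 of 52 rows and 14 of 48 genes by own reads, none higher, beside 33.2% and 33.1% of all features (17.1% and 17% lower). All 22 gamma rows passed, but only 6 of 19 gamma genes did by own reads, with 2 of 14 alpha and 6 of 15 beta genes. PCDHGB3 (-1.98 ± 0.66), PCDHGA10 (-1.73 ± 0.47), PCDHA9 (-1.64 ± 0.60), PCDHA5 (-1.29 ± 0.33), PCDHGC5 (-1.25 ± 0.42) and PCDHGA8 (-1.20 ± 0.42) were lower, with adjusted p between 0.0075 and 0.046. For PCDHGB3 and PCDHA9, part of the code C own reads were set to 0 by the subtraction, as above. The abundant isoforms did not pass, PCDHGC3 with -0.30 ± 0.37 and PCDHGA7 with -0.56 ± 0.31, nor did PCDHGC4 (-0.65 ± 0.28), PCDHAC2 (0.21 ± 0.43) and PCDHAC1 (-0.48 ± 0.38). The gamma constant exons passed with -0.50 ± 0.13 (adjusted p = 0.0079). Without Control 1, Naloxone 1 and Naloxone 2 the rows called fell to 5, and the share over all rows from 33.2% to 18.7%, while PCDHGA10 had -1.68 and PCDHGC5 -1.53. Without Naloxone 3, 6 rows were called. The own-read count was 4 without Metamorphine 3, 5 without Naloxone 3, 6 without Metamorphine 1, 7 without Morphine 1, 8 without Naloxone 1 and 9 without Naloxone 2. As above, these counts for single left-out libraries stand without the share over all features and cannot be read as particular to these genes.

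Own reads and constant-exon reads did not keep a fixed ratio among libraries. For each read of the lowest gamma row there were 0.07 summed gamma own reads in Control 1, 0.54 in Control 2 and 0.33 in Control 3. The ratio was 0.69, 0.60 and 0.26 in Morphine 1 to 3, 0.63, 0.70 and 0.46 in the metamorphine libraries and 0.18, 0.29 and 0.68 in the TRV130 libraries. It was 0.63, 0.69 and 0.57 with beta-endorphin and 0.54, 0.73 and 0.61 with naloxone. Control 1, TRV130 1, Morphine 3, TRV130 2 and Control 3 were lowest. The lowest gamma row itself was not low in Control 1 (230 CPM) or TRV130 1 (233 CPM), within the 192 to 250 CPM of code A. PCDHB reads summed to 151 CPM in Control 1 and 201 in TRV130 1, against 218 to 274 in the code A libraries other than these and TRV130 2 (202). Control 1, TRV130 1 and TRV130 2 had 13.3%, 17.7% and 15.6% of their reads in mitochondrial genes, against 6.15% to 10.1% in the other code A libraries, and Control 2 had 15.7%. The part of this in the ratio was not tested.

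**Figure D4:**
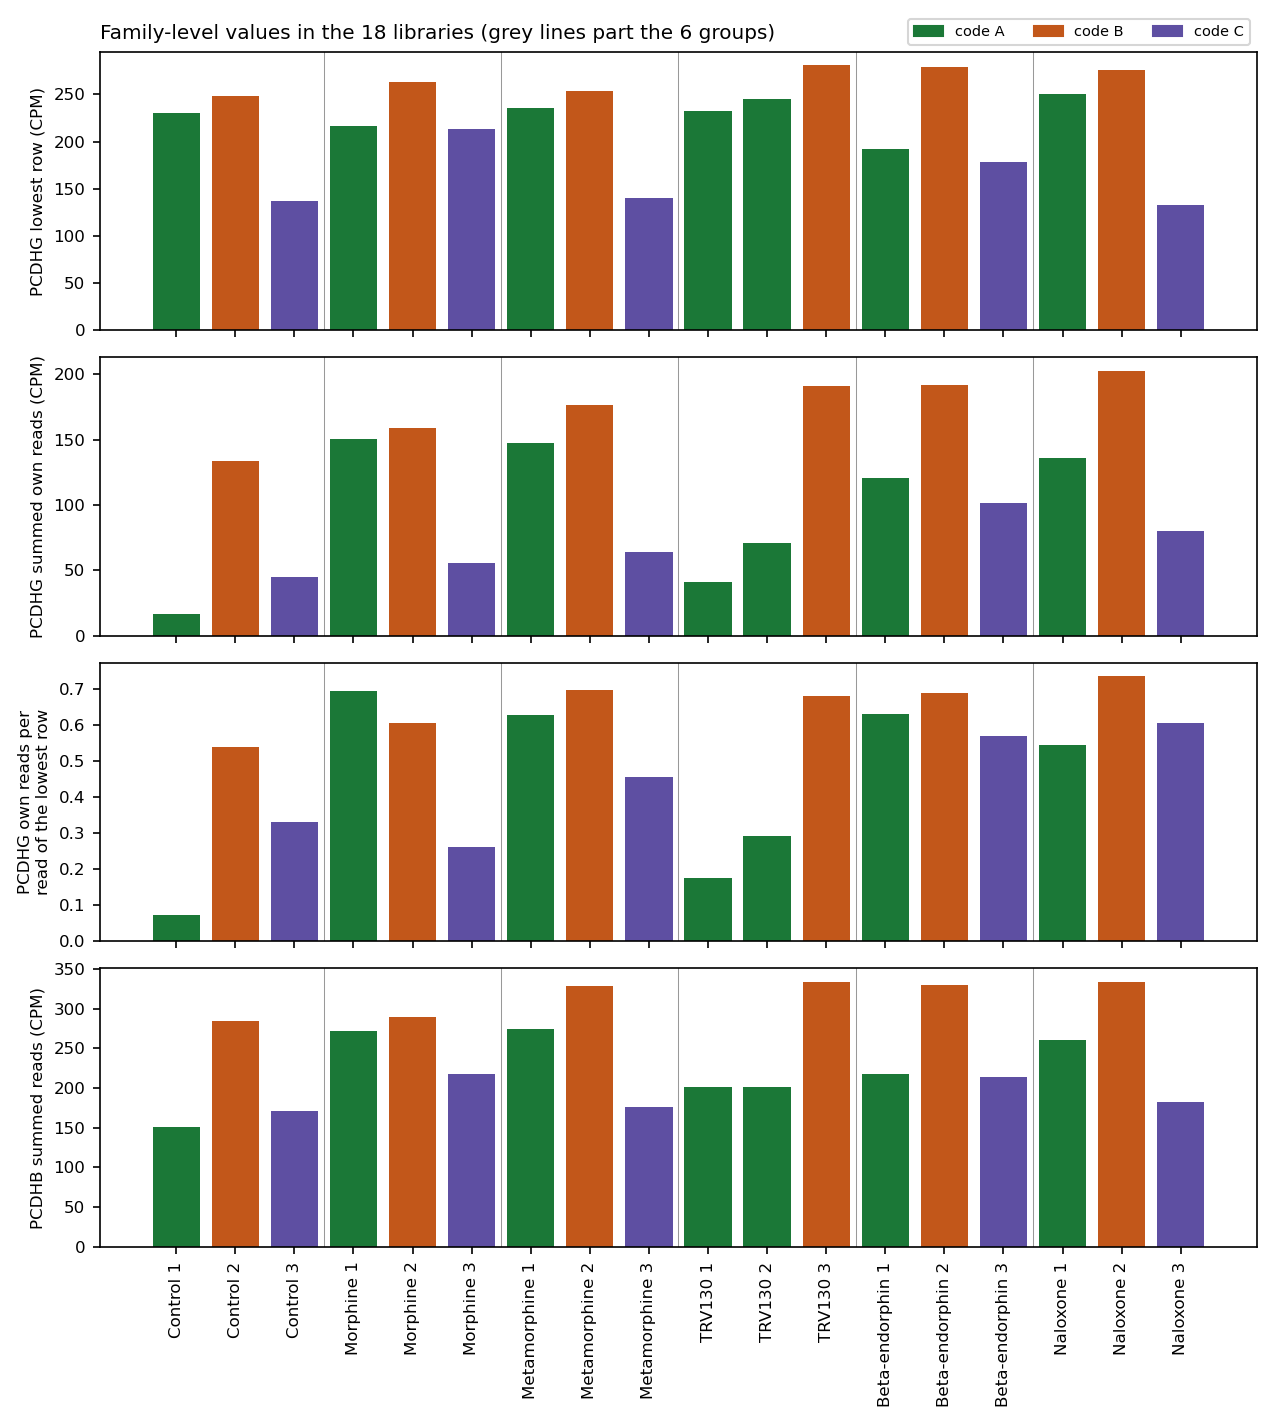
CPM of the lowest gamma row, summed gamma own CPM, their ratio and summed PCDHB CPM in the 18 libraries, by group and coloured by code. The ratio is 0.07 in Control 1 and 0.18 in TRV130 1, whose lowest gamma rows (230 and 233 CPM) are like those of other code A libraries.

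No clustered protocadherin gene passed the threshold for any compound against Control, and none in the test of any difference among the 6 groups. The same held over all genes, where 0% passed in each comparison. By edgeR on own reads, 4, 4, 2, 4 and 3 of 48 genes had an unadjusted p under 0.05 for morphine, metamorphine, TRV130, beta-endorphin and naloxone, and by rows 3, 3, 1, 0 and 1 of 52. DESeq2 called 0 of them as well, and over all genes 1 each for TRV130, beta-endorphin and naloxone and 9 in the test over 6 groups. The 5 comparisons share the Control libraries, so their values are not independent.

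Own reads of the abundant gamma isoforms were nominally higher with each compound. PCDHGC3 had 3.77, 57.0 and 19.7 CPM in Control 1 to 3, 62.5, 63.2 and 23.8 with morphine, and 57.3, 74.0 and 25.1 with metamorphine. It had 14.5, 27.0 and 80.7 CPM with TRV130, 45.2, 85.8 and 42.2 with beta-endorphin, and 55.2, 88.2 and 37.1 with naloxone. Every compound group overlapped Control. TRV130 libraries are of codes A, A and B, and Control libraries of A, B and C, so the TRV130 values here and below compare unlike codes. The log2 fold changes of PCDHGC3 against Control were 0.85 ± 0.70, 0.87 ± 0.70, 0.59 ± 0.69, 1.02 ± 0.70 and 1.08 ± 0.70 in the same order. Without Control 1 they were 0.33, 0.36, 0.08, 0.50 and 0.58, and without Control 2 they were 1.98, 1.99, 1.71, 2.14 and 2.21. Without Control 1, Naloxone 1 and Naloxone 2 the naloxone value of PCDHGC3 was 0.0052. The size of these values thus depends on single Control libraries.

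PCDHGC4 had the largest of these values among abundant isoforms. It had 2.00, 11.4 and 4.60 CPM in Control, 19.5, 19.8 and 6.39 with morphine, 20.3, 21.2 and 7.68 with metamorphine and 5.07, 8.63 and 20.6 with TRV130. It had 19.0, 18.7 and 12.3 CPM with beta-endorphin and 17.1, 21.1 and 9.81 with naloxone. The beta-endorphin libraries lay above the 3 Control libraries, and the other groups overlapped them. The log2 fold changes were 1.29 ± 0.56, 1.35 ± 0.56, 0.92 ± 0.56, 1.38 ± 0.56 and 1.33 ± 0.56 (edgeR adjusted p = 0.82, 0.60, 1.00, 0.51 and 0.65). Without Control 1 they were 0.88, 0.95, 0.53, 0.97 and 0.94, and without Control 2 PCDHGC4 had 2.07, 2.13, 1.71, 2.16 and 2.11. Without Control 1, Naloxone 1 and Naloxone 2 the naloxone value was 0.35.

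PCDHAC2, the leading alpha isoform, had 0.51, 8.06 and 4.73 CPM in Control, 11.4, 8.91 and 5.98 with morphine and 11.2, 11.7 and 4.95 with metamorphine. It had 1.33, 3.26 and 14.2 CPM with TRV130, 7.95, 13.3 and 11.1 with beta-endorphin and 8.62, 15.6 and 8.70 with naloxone. Only the naloxone libraries all lay above the 3 Control libraries. The log2 fold changes were 0.94 ± 0.71, 0.97 ± 0.71, 0.45 ± 0.70, 1.20 ± 0.71 and 1.22 ± 0.71, without Control 1 they were 0.41, 0.45, -0.08, 0.66 and 0.71, and without Control 2 PCDHAC2 had 1.64, 1.68, 1.15, 1.90 and 1.93. PCDHGA7 had values of 0.83, 0.97, 0.68, 0.98 and 1.05, and PCDHGB7 of 0.84, 0.83, 0.64, 1.06 and 1.10. PCDHB9, which has no constant exons, had 33.8, 52.3 and 36.8 CPM in Control, 52.1, 53.1 and 37.3 CPM with morphine, 30.5, 33.7 and 58.9 CPM with TRV130 and 47.2, 62.3 and 46.5 CPM with naloxone. Across codes these groups overlapped Control. Within codes PCDHB9 was above the Control library in 4 of 6 compound libraries of code A, 5 of 5 of code B and 4 of 4 of code C. The values were log2 0.48, 0.25 and 0.34 with naloxone and 0.28, 0.27 and 0.35 with beta-endorphin, and TRV130 1 and TRV130 2 were below Control 1 (-0.15 and -0.01).

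Within a code, each Control library had the lowest PCDHGC3 and PCDHGC4 own reads. In code A the 6 compound libraries exceeded Control 1 in PCDHGC3 by log2 1.94 to 4.05, in code B the 5 exceeded Control 2 by 0.15 to 0.63, and in code C the 4 exceeded Control 3 by 0.27 to 1.10. For PCDHGC4 the ranges were 1.34 to 3.34, 0.72 to 0.90 and 0.47 to 1.42. Summed PCDHB reads and the lowest alpha row were also above the Control library of their code in all 15 compound libraries, by 0.02 to 0.86 and by 0.01 to 0.76. With the code as a block, still no gene passed. The adjusted p of PCDHGC4 was then 0.34, 0.18, 0.98, 0.13 and 0.19 for the compounds in the order above. Each code has a single Control library, so the compounds and that library cannot be told apart here.

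Low-count genes gave the smallest p-values on the other side. PCDHA5 had 49, 47 and 13 own reads in Control and 14, 12 and 10 with beta-endorphin (log2 -1.80 ± 0.60, adjusted p = 0.51). With metamorphine it had 26, 17 and 3 own reads (-1.50 ± 0.59, adjusted p = 0.60) and with naloxone 22, 18 and 8 (-1.53 ± 0.59, adjusted p = 0.65). PCDHGB6 had 9, 17 and 4 own reads in Control and 0, 3 and 1 with naloxone (-3.11 ± 0.91, adjusted p = 0.65), without overlap. In Naloxone 1 its row was tied for the lowest gamma row (7343 reads), so the 0 there was set by the subtraction. PCDHA9 had -2.06 ± 0.95 with morphine and PCDHGA3 -1.06 ± 0.59 with TRV130. On the higher side PCDHGA2 had 1, 18 and 3 own reads in Control and 36, 56 and 17 with morphine (1.95 ± 0.74, adjusted p = 0.82). PCDHGA6 had 1.13 ± 0.52 and PCDHB4 0.45 ± 0.20 with TRV130, both with adjusted p = 1.00. PCDHA10 had 0.48 ± 0.21 with beta-endorphin and PCDHA11 0.55 ± 0.25 with metamorphine.

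No call was made for the constant exons either. The lowest gamma row had log2 values between -0.12 (metamorphine) and 0.30 (TRV130) against Control and the lowest alpha row between 0.12 (TRV130) and 0.36 (morphine). TRV130 has no library of code C, where the lowest gamma row was lowest on average. Within codes its lowest gamma row was above the Control library by log2 0.02, 0.09 and 0.18. The part of the codes in the value of 0.30 was not tested. The median over 48 genes by own reads was 0.42, 0.32, 0.31, 0.40 and 0.28, against -0.02 to -0.04 over all genes.

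**Figure D5:**
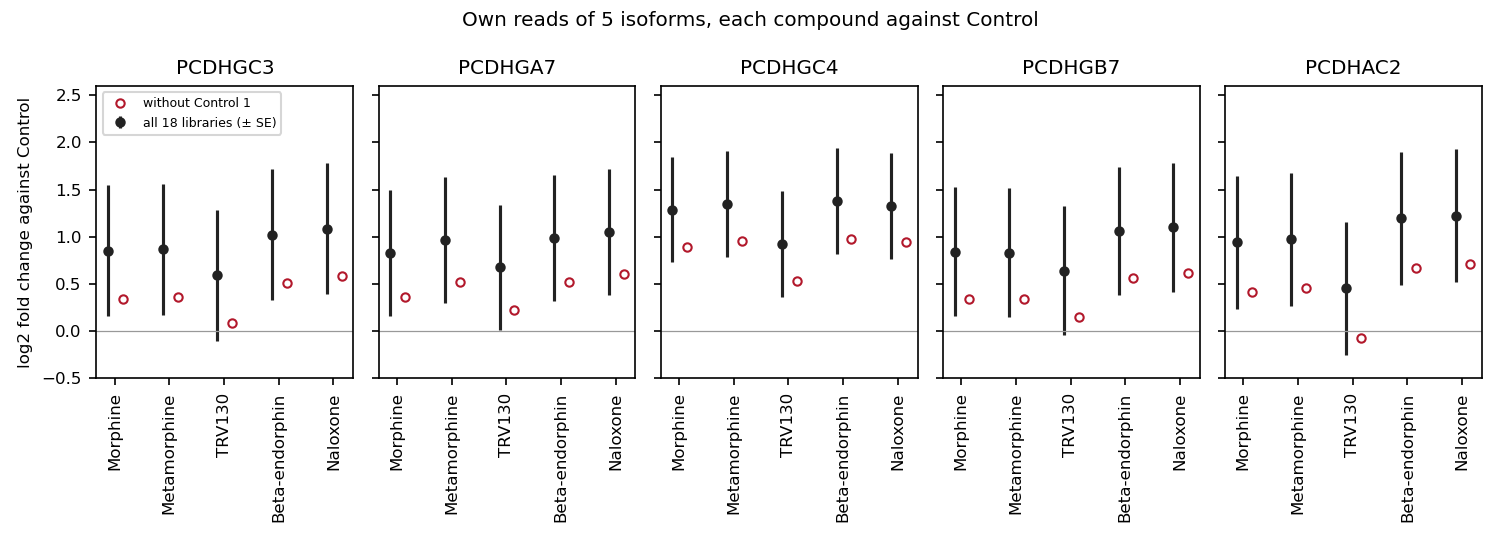
Log2 fold change against Control of own reads of 5 abundant isoforms for the 5 compounds, from all 18 libraries (black, ± SE) and without Control 1 (open red). All values are lower without Control 1, and PCDHAC2 with TRV130 goes from 0.45 to -0.08.

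The other listed genes of the pathway showed no call for any compound. Between code C and code B, 13 of 17 tested other cadherins of neurons (CDH, FAT, CELSR and calsyntenin genes) were lower and 0 higher (76.5% called, beside 54.8% of all genes, 27.8% lower and 26.9% higher). Of 22 genes for the chromatin of these promoters 4 were higher and 8 lower (54.5% called, about the share of all genes), among them DNMT3A, a DNA methyltransferase (log2 -0.79 ± 0.12, adjusted p = 7.7e-05), DNMT1 (-0.59 ± 0.09) and SETDB1 (-0.45 ± 0.08), and the cohesin subunit RAD21 was higher (0.54 ± 0.10). Of 11 non-clustered protocadherins 2 were lower (18.2%), PCDH1 (-1.05 ± 0.26) and PCDH12 (-0.83 ± 0.24). Of 24 genes for cytoplasmic partners and processing 9 were higher and 5 lower (58.3%), including BRK1 of the WAVE complex (0.92 ± 0.12) and nicastrin, NCSTN (-0.57 ± 0.09). The medians of the lists were -0.88, -0.18, -0.33 and 0.07 in this order, against -0.04 over all genes.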

How the data were processed

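RNA was made into libraries without strand information and read as paired 150-base reads, per the labels' protocols. The deposited table holds raw read counts per gene of GENCODE 29; the submitters' processing notes name FastQC, HISAT2, featureCounts, DESeq2 and GRCh38, with counting settings not given in the sources used here. CPM is the count per 1000000 of a library's table total, in which reads of overlapping genes count more than once. Intervals and spreads cover these libraries only. Libraries held 21211449 to 33123855 counts.

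Members, gene lists and the comparison of codes were chosen with earlier results of these data known. Genes were kept with filterByExpr at a minimum count of 10 (23231 of 58735; 52 of 53 members, all but PCDHB1). For own reads, the lowest row of PCDHA and of PCDHG was subtracted in each library and kept as a feature of its own. 48 members were then tested, not PCDHA13, PCDHB1, PCDHGA11, PCDHGA12 and PCDHGB5. edgeR 4.0.16 (R 4.3.3, TMM, robust quasi-likelihood test, two-sided, Benjamini-Hochberg over all genes tested) used 1 mean per group for compounds and added the code for codes. Alternatives were RLE factors, no filter, DESeq2 1.42.0, blocks and left-out libraries. The steps were tested on simulated data. These had no code differences in the test of groups, so they do not show what size of change the compound comparisons could find. Named were the 4 members highest per kb by own reads in each family, the C-type genes, the lowest members, up to 6 called per direction with the largest change, or the 3 smallest p, and up to 4 of each other list. PCDHA10, PCDHA4, PCDHB4, PCDHB6, PCDHB2, PCDHGA1 and PCDHB11 were also named after their values were seen.

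Replicate numbers were taken to pair a compound with Control only where all correlations of deviations between same-numbered libraries were over 0.1. This held for naloxone (0.25, 0.73 and 0.70). The main fits still used no pairing for any compound, naloxone included. Values against Control are thus unpaired unless the code block or a comparison within codes is named. Of the 53 members, 22 share exon bases with genes outside the 3 families, and 19 of 53 with antisense genes, from which reads cannot be told apart.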

Additional observations from a re-analysis of the deposited data

Results flagged for a closer look

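The lowest PCDHA row, which measures the alpha constant exons, was 21.999 CPM in Control 2, the lowest of the 6 code B libraries, the other 5 of which lay between 27.4 and 30.6 CPM. Its gap to the next library exceeded Dixon's limit for 6 values. In all, 21 sets of values were examined in this way, and chance marks about 1 in 20.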

How the results depend on the processing

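For the 5 compounds and the test over 6 groups, 0 clustered protocadherin genes were called under RLE factors, no low-count filter, DESeq2, the 2 compared groups alone, the code block, the replicate block (0 called in each comparison) and each left-out library, by rows and by own reads. Not all correlations were over 0.1 in the morphine (lowest -0.26), metamorphine (-0.05), TRV130 (-0.53) and beta-endorphin (0.0996) groups, so replicate numbers were not taken as pairs there. Yet in the morphine, metamorphine and beta-endorphin groups, same-numbered libraries carry the code of the Control library. Their lowest correlation was that with Control 1. Numbers 2 and 3 had 0.43 and 0.39 with morphine, 0.65 and 0.64 with metamorphine, and 0.67 and 0.59 with beta-endorphin. Code C against code B gave 37 to 52 rows and 28 to 38 genes by own reads over left-out libraries. Code B against code A gave 13 rows with no low-count filter, 14 by own reads, 1 without the 3 TRV130 libraries and 1 without Control 1, Naloxone 1 and Naloxone 2 (1 and 1 by own reads). Over left-out libraries it gave 3 to 25 rows and 3 to 18 by own reads. Code C against code A gave 5 rows without those 3 libraries, 14 by own reads, 6 to 33 rows and 4 to 21 by own reads over left-out libraries. Ranges over left-out libraries stand without the shares over all features, so they cannot be read as particular to these genes. The causes were not tested. At 2 CPM per kb 8 PCDHB rows counted as expressed. By own reads per kb of all annotated exons outside the constant exons, 6 PCDHA and 4 PCDHG genes did at 1 CPM per kb, and 1 and 4 at 2 CPM per kb. The PCDHB share of the level was 6.16% by all exon bases, 4.37% with no length and 58.9% by own reads, with 10.4% for PCDHA and 30.6% for PCDHG by own reads.

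Directions turned in values that had not passed. Without Control 1, Naloxone 1 and Naloxone 2, PCDHAC2 with TRV130 was -0.065, PCDHGA7 and PCDHGB7 with naloxone were -0.22 and -0.08, PCDHA11 in code B against A was -0.035, PCDHAC2 in code C against A was -0.080, and the lowest gamma row was 0.041 with metamorphine and 0.096 with beta-endorphin. Without the 3 TRV130 libraries PCDHAC1 in code B against A was -0.052. Over left-out libraries the ranges that crossed 0 were, with TRV130, -0.75 to 1.15 for PCDHAC2, -0.16 to 1.71 for PCDHGC3 and -0.11 to 1.60 for PCDHGB7. In code B against A they were -0.32 to 0.058 for PCDHA7, -0.29 to 0.10 for PCDHGB4, -0.011 to 0.18 for PCDHA11 and -0.072 to 0.58 for PCDHAC1. In code C against A they were -0.051 to 0.51 for PCDHAC2, -0.0057 to 0.10 for PCDHB10, -0.52 to 0.074 for PCDHA12, -0.20 to 0.014 for PCDHA11 and -0.12 to 0.0066 for PCDHB9. For the lowest gamma row they were -0.14 to 0.22 with morphine, -0.34 to 0.081 with metamorphine, -0.29 to 0.075 with beta-endorphin and -0.27 to 0.20 with naloxone.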
